A study of Mus musculus with 59 samples.

Results

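The tibialis anterior, a fast-twitch muscle at the front of the shin, was compared between mice with a melanoma that causes wasting of the body and mice with a melanoma that does not. The 10 libraries were chosen by their labelled muscle and melanoma alone: 5 tibialis anterior libraries with the cachectic melanoma and 5 with the non-cachectic melanoma, out of 59 libraries in the series. All mice were 4-month-old females of the NCI Ath/nude strain, which has no thymus and so lacks mature T cells, and every mouse carried a patient-derived human melanoma implanted in the flank. Per the study's methods the cachectic tumour was MAST360B/SJMEL030083_X2 and the non-cachectic one MAST552A/SJMEL031086_X1. Each group therefore stands for 1 tumour stock, and mice without a tumour were not analysed here, so every value below is a difference between the melanomas. The labels of these 10 samples name no treatment with recombinant Fibcd1 (rFibcd1), the protein that other mice of the series received. RNA abundance was measured by RNA-seq and is given as TPM, each gene's length-corrected share of its library. The libraries are called by the number in the name of their column, 6 to 10 in the cachectic and 61 to 65 in the non-cachectic group, because these numbers could not be matched to the labelled replicates. The labels name the libraries of a group as replicates without giving the animal, so p-values measure the spread between these samples.

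Wasting muscle loses protein when breakdown outpaces synthesis. Breakdown runs through the ubiquitin-proteasome system, in which muscle ligases such as atrogin-1 (Fbxo32) and MuRF1 (Trim63) tag proteins for the proteasome, and through autophagy and the lysosome. Transcription factors of the FoxO family, the glucocorticoid receptor, STAT3 downstream of interleukin-6 and NF-kappaB are known to switch on these genes in muscle, and insulin, IGF1 and BMP signals oppose them.

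The fibre type of the muscle was checked against its myosins. Myh4, the myosin of the fastest fibres, was at 11700, 14540, 10850, 14210 and 13730 TPM in cachectic libraries 6 to 10 and at 13730, 7593, 12850, 11700 and 10030 TPM in non-cachectic libraries 61 to 65. Myh7, the slow myosin, did not exceed 4.83 TPM in any of them. Myh1 was at 2810 to 6064 TPM across the 10 libraries. Each library thus had the myosins of a fast muscle, whatever its melanoma. Fibcd1 itself was listed at 0.0118 TPM or less in every library, which is too low to test.

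Several features of the libraries differed with the melanoma and touch every value below. Between 16440 and 17670 genes were above 0 in each library, and the depth behind them is unknown. The share of TPM from transcripts of the mitochondrial genome was 38.8% ± 8.12 with the cachectic and 48.5% ± 1.80 with the non-cachectic melanoma (SD, n = 5 each). The difference was -9.68 percentage points (exact permutation test, two-sided p = 0.00794, the smallest that 5 against 5 allows), and -6.25 points without cachectic library 8. The median log2 fold change of all genes tested was 0.41, and 0.21 when TPM was rescaled without the mitochondrially encoded genes. On that scale 4369 genes were called higher and 987 lower. Cachectic library 8 stood apart: its mitochondrial share was 25.1%, against 38.9% to 45.6% in the other cachectic libraries. In library 8, 4795 genes were at least 2-fold away from the non-cachectic mean, against 499 to 776 in the other cachectic and 19 to 60 in the non-cachectic libraries. Its median correlation with its own group was 0.955, against at least 0.986 for every other library. The median SD of a gene on the log2 scale was 0.319 in the cachectic group, 0.145 without library 8 and 0.104 in the non-cachectic group.

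A further feature split the libraries of the whole series into 2 states, marked by the processed pseudogene Pcna-ps2. It was at 5.59, 7.65, 13.6, 5.87 and 7.604 TPM in cachectic libraries 6 to 10 and at 0, 0, 0, 0.0386 and 0.0387 TPM in non-cachectic libraries 61 to 65. All 5 cachectic and 0 non-cachectic libraries were thus in the high state, so the melanoma and this state cannot be told apart here. In the diaphragm, where 26 libraries were high and 13 low, 44 genes differed at least 4-fold by state, and 25 of them were tested in tibialis anterior. Of these 25 genes 22 were called, beside 60.2% of all genes tested, and they made up 0.329% of all calls. This share leaves out calls of genes with smaller state differences, which were not counted. A state difference of at least 1 on the log2 scale in the diaphragm is given beside each gene named below that had one. Some were just under that size. Capza1 was at -0.995 by state, against -1.08 by melanoma here. Rps3a1 (0.98, against 1.29), Cox7b (0.94, against 0.89), Ppargc1a (0.91, against 0.33), Ucp2 (0.83, against 1.00) and Myh4 (0.82, against 0.24) were near it too.

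Across the muscle, 11105 genes had a TPM of at least 1 in at least 5 of the 10 libraries and were tested with limma on log2(TPM + 1), with Benjamini-Hochberg adjustment. At an adjusted p under 0.05, 6260 genes (56.4%) were higher and 420 (3.78%) lower with the cachectic melanoma. Median-ratio scaling, which centres the fold changes of the genes near 0, gave 2200 higher and 2325 lower, so 48.6% of the calls were higher against 93.7% as deposited. A call that passed in the same direction under both scalings, each with and without library 8, is called held below. Such held calls numbered 2030 higher (18.3% of the genes tested) and 400 lower (3.6%), and the counts of each gene group are read against these shares. The groups did not overlap for 5741 genes (51.7%), with every cachectic library higher for 49.1% and lower for 2.55% of the genes tested, so a lack of overlap is common in these libraries. Fold changes are log2, cachectic minus non-cachectic, on the TPM as deposited unless another scale is named, and the added 1 understates the change of genes at low TPM.

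**Figure D1:**
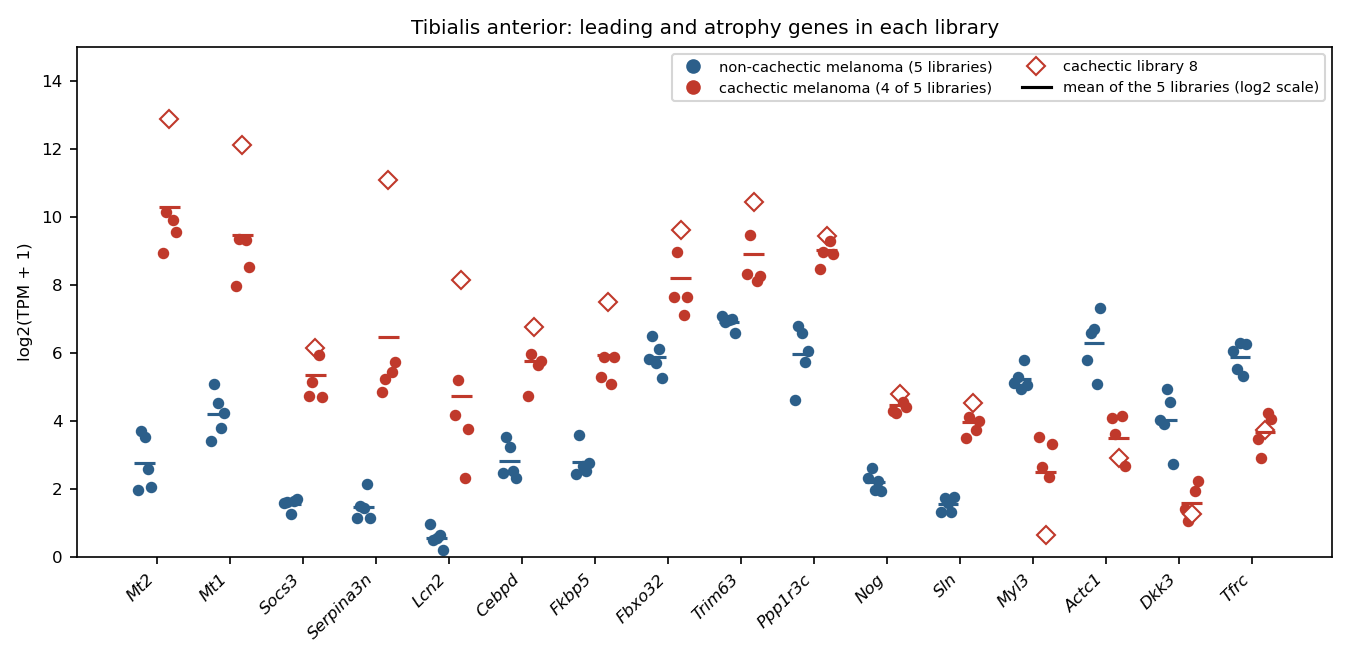
Level of 16 genes in each tibialis anterior library, on a log2(TPM + 1) axis, with blue points for the 5 non-cachectic and red marks for the 5 cachectic libraries, open diamonds for cachectic library 8 and short lines for group means. Mt2 lies between 2.94 and 12.1 TPM in the non-cachectic and between 487 and 7579 TPM in the cachectic libraries, and the groups do not overlap for any of the genes drawn, as for 51.7% of all genes tested.

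Mt2 and Mt1, metallothioneins, which are small cysteine-rich proteins that bind zinc and copper, had the highest fold changes of all genes tested. Mt2 was at 487, 1130, 7579, 962 and 758 TPM in cachectic libraries 6 to 10 and at 2.94, 12.1, 10.5, 5.05 and 3.15 TPM in non-cachectic libraries 61 to 65. Its log2 fold change was 7.51 (SE 0.628, adjusted p = 1.52e-05 by limma), and 6.87 without library 8 (adjusted p = 1.77e-06). Mt1 was at 249.8, 651, 4400, 642 and 370 TPM in cachectic libraries 6 to 10 and at 9.72, 33.2, 22.2, 12.7 and 17.9 TPM in non-cachectic libraries 61 to 65, and the log2 fold change was 5.24 (SE 0.625, adjusted p = 0.000183 by limma), or 4.58 without library 8 (adjusted p = 7.88e-06). The lowest cachectic library exceeded the highest non-cachectic one for both genes, and library 8 was the highest. Slc39a14, the zinc importer ZIP14, was at 11.2 ± 13.3 against 2.52 ± 0.287 TPM (SD, n = 5) and rose as deposited (1.32, adjusted p = 0.0223, and 0.81 without library 8, which was at 35.0 TPM), but not after median-ratio scaling (0.92, adjusted p = 0.0503). Of 12 metallothionein and zinc transporter genes, 9 were tested, 9 were higher and 0 lower as deposited, 4 and 0 after median-ratio scaling, and 4 and 0 held.

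Mt2 lies at chr8:94172664-94173568 and Mt1 next to it at chr8:94179082-94180327, both on the plus strand of GRCm38 in the GENCODE M21 annotation. Their promoters are shown because these neighbouring genes moved together and hold the core of the metal response element, TGCNCNC, the sequence bound by the zinc sensor MTF1. The RefSeq promoter windows (GRCm38.p6, the 250 bases before the RefSeq start of each gene, plus strand, 5′ to 3′) have matches on either strand in capitals. The Mt2 window is chr8:94172368-94172617 and that of Mt1 is chr8:94178839-94179088.
Mt2: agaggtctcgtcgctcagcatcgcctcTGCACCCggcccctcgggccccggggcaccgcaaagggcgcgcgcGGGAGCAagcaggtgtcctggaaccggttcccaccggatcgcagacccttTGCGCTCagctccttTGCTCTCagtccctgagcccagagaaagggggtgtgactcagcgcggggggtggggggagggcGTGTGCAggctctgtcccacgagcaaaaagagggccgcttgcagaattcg
Mt1: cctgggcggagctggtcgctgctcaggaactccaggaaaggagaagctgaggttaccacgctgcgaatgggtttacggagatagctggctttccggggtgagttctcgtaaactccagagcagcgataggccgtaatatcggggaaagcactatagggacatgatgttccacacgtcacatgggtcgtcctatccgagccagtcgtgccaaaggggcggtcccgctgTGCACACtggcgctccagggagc
The core occurs 5 times in the Mt2 window, from -223 to -50 bases relative to the start site, and 1 time in that of Mt1, at -23. The core is short and common: of the 8442 tested genes with a promoter window, 58.0% hold at least 1 match, and 0.580% hold 5 or more. These matches describe the letters and not where a factor binds.

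Genes of interleukin-6 signalling and the acute phase, the blood proteins that rise with inflammation, were higher with the cachectic melanoma. Socs3, the feedback inhibitor of the gp130 receptor and STAT3, was at 25.7, 34.4, 70.4, 60.6 and 25.0 TPM in cachectic libraries 6 to 10 and at 1.98, 2.05, 1.42, 2.10 and 2.24 TPM in non-cachectic libraries 61 to 65. The log2 fold change was 3.78 (SE 0.267, adjusted p = 5.34e-06 by limma), 3.58 without library 8, and libraries 8 and 9 were the highest. Serpina3n, a secreted protease inhibitor of the acute phase, was at 28.1, 37.0, 2161, 42.0 and 52.2 TPM in cachectic libraries 6 to 10 and at 1.19, 1.82, 1.73, 3.45 and 1.20 TPM in non-cachectic libraries 61 to 65. Here library 8 decided the size: the fold change was 5.00 (SE 0.953, adjusted p = 0.00252 by limma), 3.84 without library 8 (adjusted p = 2.01e-06), and the cachectic mean of 464 TPM was above every other library of the group. Lcn2, a protein that withholds iron from bacteria, was at 17.03, 35.6, 279.9, 4.03 and 12.7 TPM in cachectic libraries 6 to 10 and at 0.936, 0.404, 0.476, 0.554 and 0.148 TPM in non-cachectic libraries 61 to 65 (4.15, adjusted p = 0.00254, and 3.30 without library 8). Hp, haptoglobin, the carrier of free haemoglobin, was at 9.57, 9.17, 35.5, 26.7 and 19.7 TPM in cachectic libraries 6 to 10 and at 0.394, 2.15, 0.846, 0.758 and 1.52 TPM in non-cachectic libraries 61 to 65 (3.19, adjusted p = 0.00013), with a state difference of 1.53 in the diaphragm.

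The transcription factors of this pathway rose too. Cebpd, a factor of acute-phase and glucocorticoid responses, was at 25.8, 61.2, 107, 48.7 and 53.7 TPM in cachectic libraries 6 to 10 and at 4.49, 10.6, 8.47, 4.72 and 4.00 TPM in non-cachectic libraries 61 to 65 (2.96, adjusted p = 0.000141). Junb, a subunit of AP-1, averaged 29.1 ± 12.7 against 5.40 ± 1.72 TPM (SD, n = 5 each, 2.17, adjusted p = 0.000283). Both genes had every cachectic library above every non-cachectic one, as had 49.1% of all genes. Of 20 genes for receptors of the interleukin-6 family and targets of STAT3, 17 were tested, 14 were higher and 0 lower as deposited, 10 and 0 after median-ratio scaling, and 10 and 0 held. Of 19 acute-phase genes, 10 were tested, 9 were higher and 0 lower as deposited, 9 and 0 after median-ratio scaling, and 9 and 0 held. The median fold change was 2.28 as deposited and 1.94 after median-ratio scaling for the acute-phase genes, beside 0.41 and 0.00 for all genes tested. Socs3 is shown with the palindrome bound by STAT factors, TTCNNNGAA, in capitals, in its RefSeq window at chr11:117969367-117969616 (GRCm38.p6, minus strand).
Socs3: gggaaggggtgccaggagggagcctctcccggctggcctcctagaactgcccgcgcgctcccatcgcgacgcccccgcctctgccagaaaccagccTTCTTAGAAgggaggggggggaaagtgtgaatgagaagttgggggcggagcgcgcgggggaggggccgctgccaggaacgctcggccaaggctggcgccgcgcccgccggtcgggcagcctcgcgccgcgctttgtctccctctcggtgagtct
The palindrome occurs 1 time there, at -154, and 7.11% of the windows of the tested genes hold it. The window of Serpina3n held 0 and that of Lcn2 0 matches. Those of Stat3 and Cebpb held 0 and 0.

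Complement, the plasma and tissue proteins that mark cells and microbes for removal, moved in the same direction. C3, its central component, was at 68.3, 31.8, 70.0, 54.2 and 96.4 TPM in cachectic libraries 6 to 10 and at 7.64, 6.98, 5.63, 15.2 and 10.4 TPM in non-cachectic libraries 61 to 65 (2.66, adjusted p = 0.000117). C4b was at 13.8, 8.68, 37.8, 17.9 and 28.0 TPM in cachectic libraries 6 to 10 and at 0.964, 1.57, 1.24, 2.89 and 1.37 TPM in non-cachectic libraries 61 to 65 (2.97, adjusted p = 0.000129). C1s1, the protease of the first complex, averaged 39.2 ± 11.9 against 5.84 ± 4.28 TPM (SD, n = 5 each, 2.88, adjusted p = 0.00227), with a state difference of 1.69 in the diaphragm. For all 3 the groups did not overlap, beside 51.7% of all genes, and library 8 was not the highest for C3 or C1s1. Of 22 complement genes, 15 were tested, 14 were higher and 0 lower as deposited, 12 and 0 after median-ratio scaling, and 12 and 0 held, with a median of 1.82 as deposited and 1.38 after median-ratio scaling.

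Glucocorticoid-responsive genes were higher as well. Fkbp5, a co-chaperone of the glucocorticoid receptor and one of its most used reporter targets, was at 38.2, 57.6, 179.9, 32.8 and 58.1 TPM in cachectic libraries 6 to 10 and at 4.37, 11.03, 5.43, 4.71 and 5.80 TPM in non-cachectic libraries 61 to 65 (3.13, adjusted p = 0.000241, and 2.74 without library 8). Ddit4, an inhibitor of mTORC1, was at 36.0, 167, 115, 87.0 and 71.7 TPM in cachectic libraries 6 to 10 and at 6.57, 21.5, 18.9, 7.79 and 12.8 TPM in non-cachectic libraries 61 to 65 (2.69, adjusted p = 0.000652). Neither gene overlapped between groups, beside 51.7% of all genes that did not. Dusp1, a phosphatase of MAP kinases that glucocorticoids induce in many cells, went the other way at 24.0 ± 5.78 against 48.3 ± 23.2 TPM (SD, n = 5 each, -0.85, adjusted p = 0.0464), and did not pass without library 8 (-0.88, adjusted p = 0.0604). Of 24 genes of the receptor and its targets, 22 were tested, 18 were higher and 1 lower as deposited, 14 and 2 after median-ratio scaling, and 14 and 0 held. The 8 genes that the study named for the melanoma in the diaphragm share Ddit4, Klf15 and Zbtb16 with this list. They were chosen by the study on diaphragms of the same series and are no independent evidence of direction: of them, 8 were tested, 7 were higher and 1 lower as deposited, 6 and 1 after median-ratio scaling, and 6 and 1 held. Arrdc2, an arrestin-domain protein, was at 109.9, 192, 165, 174 and 144 TPM in cachectic libraries 6 to 10 and at 14.6, 57.4, 40.0, 24.6 and 26.6 TPM in non-cachectic libraries 61 to 65 (2.35, adjusted p = 0.00025), and Scgb3a1, a secretoglobin, rose from 0.194 ± 0.210 to 11.97 ± 7.70 TPM (SD, n = 5, 3.25, adjusted p = 9.42e-05).

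The best known ligases of atrophy rose in every cachectic library. Fbxo32 (atrogin-1, chr15:58175879-58214932, GRCm38) was at 199.8, 498, 789, 138 and 201 TPM in cachectic libraries 6 to 10 and at 55.6, 89.9, 50.7, 68.8 and 37.6 TPM in non-cachectic libraries 61 to 65. The log2 fold change was 2.32 (SE 0.421, adjusted p = 0.00197 by limma), 1.96 without library 8 and 1.84 after median-ratio scaling. Trim63 (MuRF1) was at 319, 702, 1376, 277 and 304 TPM in cachectic libraries 6 to 10 and at 136, 120.2, 124, 127 and 95.9 TPM in non-cachectic libraries 61 to 65, and the log2 fold change was 2.00 (SE 0.376, adjusted p = 0.00235 by limma), 1.62 without library 8. Libraries 7 and 8 were the highest of the cachectic group for both ligases, and no cachectic library reached down to the non-cachectic range. Fbxo31, the substrate receptor of another ubiquitin ligase, averaged 214 ± 163 against 49.2 ± 4.11 TPM (SD, n = 5 each, 1.85, adjusted p = 0.00167). Without library 8 the cachectic mean was 142 TPM and the fold change 1.49. The ligases as a group were less uniform: of 31 ligases and adaptors, 30 were tested, 19 were higher and 0 lower as deposited, 8 and 7 after median-ratio scaling, and 8 and 0 held, and the median was 0.44 as deposited and -0.03 after median-ratio scaling, beside 0.41 and 0.00 for all genes.

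The promoter of Trim63 is shown because it holds, side by side, the core of the glucocorticoid response element, ACANNNTGT, and the FoxO element, GTAAACA, both in capitals, the latter on the other strand. The RefSeq window is chr4:134314870-134315119 (GRCm38.p6, plus strand).
Trim63: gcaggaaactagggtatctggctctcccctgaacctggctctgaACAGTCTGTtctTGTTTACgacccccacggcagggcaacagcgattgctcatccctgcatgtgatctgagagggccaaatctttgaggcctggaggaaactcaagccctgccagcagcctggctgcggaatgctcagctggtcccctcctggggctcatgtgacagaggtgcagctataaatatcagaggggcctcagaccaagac
The elements begin at -206 and -194 bases from the start site and do not overlap. Among the tested genes with a window, 4.17% hold the first and 2.46% the second. The window of Fkbp5 holds 0 matches of ACANNNTGT.

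Proteasome subunits were mostly higher on the deposited scale. Of 39 subunit genes, 37 were tested, 33 were higher and 0 lower as deposited, 16 and 1 after median-ratio scaling, and 15 and 0 held, and the median was 0.71 as deposited and 0.23 after median-ratio scaling. Psma7, a subunit of the catalytic core, averaged 112 ± 59.8 against 39.8 ± 3.00 TPM (1.35, adjusted p = 0.00167), and Psmd4, a ubiquitin receptor of the cap, 166 ± 94.5 against 63.7 ± 4.41 TPM (SD, n = 5 each, 1.24, adjusted p = 0.00328). Their values in library 8, 218 and 334 TPM, were more than 2-fold above the next cachectic library, and without it the fold changes were 1.08 and 0.95. Psmb8, of the immunoproteasome, was called as deposited (1.17, adjusted p = 0.0082) and not after median-ratio scaling (0.77, adjusted p = 0.0925). Its state difference in the diaphragm was 1.40.

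Of 47 genes of autophagy and the lysosome, 46 were tested, 36 were higher and 1 lower as deposited, 15 and 6 after median-ratio scaling, and 13 and 1 held. Map1lc3b, which coats the autophagosome, was at 130.4, 181, 367, 167 and 141 TPM in cachectic libraries 6 to 10 and at 57.2, 64.5, 57.4, 57.4 and 58.6 TPM in non-cachectic libraries 61 to 65 (1.61, adjusted p = 0.000538). Ctsl, the lysosomal protease cathepsin L, was at 184, 262, 898, 164 and 216 TPM in cachectic libraries 6 to 10 and at 73.1, 77.0, 82.7, 71.3 and 64.6 TPM in non-cachectic libraries 61 to 65 (1.88, adjusted p = 0.0028, and 1.46 without library 8). The groups were apart for both, and library 8 was the highest. Ctss, a cathepsin of antigen-presenting cells, ranged from 3.06 to 31.0 TPM in the cachectic and from 1.88 to 5.85 TPM in the non-cachectic libraries, which overlapped (1.92, adjusted p = 0.00994, with a state difference of 1.48 in the diaphragm), and the call was lost after median-ratio scaling without library 8 (adjusted p = 0.0676). Wipi1, which binds the forming autophagosome, was lower at 21.7 ± 3.14 against 27.8 ± 4.15 TPM (SD, n = 5 each, -0.35, adjusted p = 0.0426). Of 20 FoxO factors and targets, 20 were tested, 13 were higher and 1 lower as deposited, 10 and 1 after median-ratio scaling, and 10 and 1 held. Foxo1 itself was at 5.49, 7.41, 33.0, 9.75 and 8.42 TPM in cachectic libraries 6 to 10 and at 3.71, 4.53, 3.77, 4.42 and 5.07 TPM in non-cachectic libraries 61 to 65 (1.10, adjusted p = 0.0196, and 0.71 without library 8), and library 8 was more than 3-fold above the others. Cited2, a transcriptional cofactor, averaged 48.5 ± 18.0 against 20.02 ± 4.08 TPM (1.19, adjusted p = 0.00213), and Gadd45a, a stress gene that rises in denervated and starved muscle, 54.3 ± 20.97 against 19.3 ± 2.29 TPM (SD, n = 5 each, 1.39, adjusted p = 0.0006).

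Members of the insulin, IGF1 and mTOR list that rose included both inhibitors and carriers of the growth signal. Eif4ebp1 encodes 4E-BP1, which holds back cap-dependent translation when mTORC1 is inactive, and was at 120.3, 177, 741, 110.3 and 157 TPM in cachectic libraries 6 to 10 and at 31.6, 28.8, 30.4, 37.0 and 27.1 TPM in non-cachectic libraries 61 to 65. Its log2 fold change was 2.62 (SE 0.413, adjusted p = 0.000954 by limma), 2.13 without library 8. Igfbp3 and Igfbp4, binding proteins of insulin-like growth factors, averaged 38.9 ± 55.9 against 4.51 ± 0.419 TPM and 31.4 ± 14.1 against 8.48 ± 1.38 TPM (SD, n = 5 each, 2.05 with adjusted p = 0.0102, and 1.69 with adjusted p = 0.00049). The mean of Igfbp3 rested largely on library 8 at 139 TPM, and without it the fold change was 1.40 (adjusted p = 4.88e-05). Akt1, a kinase that carries the insulin signal onward, rose too (1.47, adjusted p = 0.00652), and was named after its values were seen. It was at 178 TPM in library 8 and at 33.7 to 47.7 TPM in the other cachectic libraries. The non-cachectic libraries were at 17.2 to 22.3 TPM. Of 27 genes of insulin, IGF1 and mTOR signalling, 27 were tested, 17 were higher and 0 lower as deposited, 7 and 2 after median-ratio scaling, and 7 and 0 held.

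Nog, noggin, an extracellular antagonist of BMPs, was at 18.5, 17.9, 26.6, 22.6 and 20.3 TPM in cachectic libraries 6 to 10 and at 3.95, 5.18, 2.88, 3.69 and 2.84 TPM in non-cachectic libraries 61 to 65, and the log2 fold change was 2.25 (SE 0.157, adjusted p = 5.11e-06 by limma), or 2.16 without library 8. The cachectic libraries lay close together for this gene, library 8 included. Bmp4, a ligand that noggin binds, was also higher at 7.11 ± 1.71 against 3.37 ± 0.260 TPM (SD, n = 5 each, 0.87, adjusted p = 0.00136). Mstn, myostatin, the muscle's own growth inhibitor, ranged from 24.7 to 71.3 TPM in the cachectic and from 15.7 to 26.7 TPM in the non-cachectic libraries. It passed as deposited (0.95, adjusted p = 0.0104) and not after median-ratio scaling (0.49, adjusted p = 0.0622). Of 36 genes of myostatin, activin and BMP signalling, 26 were tested, 15 were higher and 2 lower as deposited, 8 and 6 after median-ratio scaling, and 7 and 2 held.

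Cytosolic ribosomal proteins formed the most uniform large group. Of 90 genes, 82 were tested, 75 were higher and 0 lower as deposited, 69 and 1 after median-ratio scaling, and 68 and 0 held, so 82.9% of those tested held as higher beside 18.3% of all genes. Their median was 0.97 as deposited and 0.49 after median-ratio scaling. The mean difference of the members from the non-cachectic mean was 0.61 to 0.77 in the cachectic libraries other than 8, where it was 1.86. Rps3a1 averaged 877 ± 355 against 350 ± 87.0 TPM (1.29, adjusted p = 0.00206), Rpl30 168 ± 93.1 against 49.3 ± 11.5 TPM (1.65, adjusted p = 0.0012) and Rpl3 59.4 ± 59.5 against 16.4 ± 1.68 TPM (SD, n = 5 each, 1.42, adjusted p = 0.0112, and 0.96 without library 8). By state the diaphragm differed by 0.98 for Rps3a1, 0.77 for Rpl30 and 0.37 for Rpl3. Ribosomal protein genes have many processed pseudogenes, so the split of reads among copies is uncertain.

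Of 32 genes of the integrated stress response and amino acid supply, 27 were tested, 16 were higher and 1 lower as deposited, 8 and 1 after median-ratio scaling, and 8 and 1 held. Chac1, a glutathione-degrading enzyme downstream of ATF4, was at 144, 186, 163, 116 and 151 TPM in cachectic libraries 6 to 10 and at 57.9, 50.6, 57.6, 52.6 and 20.7 TPM in non-cachectic libraries 61 to 65 (1.71, adjusted p = 0.000652). Slc3a2, the shared chain of amino acid transporters, averaged 43.2 ± 23.6 against 11.7 ± 0.653 TPM (1.67, adjusted p = 0.000766), while Ddit3 (CHOP), another ATF4 target, was lower at 10.9 ± 2.58 against 17.2 ± 2.62 TPM (SD, n = 5 each, -0.63, adjusted p = 0.00765). Members of this list thus moved in both directions under each scaling.

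Contractile genes moved in both directions. Actc1, the actin of heart and of developing or regenerating muscle, was at 15.9, 11.3, 6.55, 16.6 and 5.42 TPM in cachectic libraries 6 to 10 and at 55.0, 95.2, 102, 33.0 and 159.9 TPM in non-cachectic libraries 61 to 65, and the log2 fold change was -2.81 (SE 0.403, adjusted p = 0.000579 by limma), or -2.67 without library 8. Its state difference in the diaphragm was in the other direction, at 1.40. Myl3, the essential light chain of slow fibres and the ventricle, was at 10.6, 5.21, 0.554, 4.07 and 9.02 TPM in cachectic libraries 6 to 10 and at 33.7, 38.4, 29.6, 54.4 and 32.2 TPM in non-cachectic libraries 61 to 65, and the log2 fold change was -2.75 (SE 0.440, adjusted p = 0.00104 by limma), or -2.28 without library 8. Every cachectic library was below every non-cachectic one for both. Sln, sarcolipin, a small inhibitor of the sarcoplasmic calcium pump, was at 10.2, 16.2, 21.9, 12.4 and 15.1 TPM in cachectic libraries 6 to 10 and at 1.496, 2.34, 1.99, 1.51 and 2.36 TPM in non-cachectic libraries 61 to 65 and rose (2.43, adjusted p = 8.4e-06). Of 25 slow, cardiac and stretch-responsive sarcomere genes, 25 were tested, 9 were higher and 9 lower as deposited, 5 and 11 after median-ratio scaling, and 5 and 8 held. Slow myosin Myh7 was higher as deposited but overlapped at these low levels (0.89, adjusted p = 0.038), and did not pass after median-ratio scaling (0.69, adjusted p = 0.176).

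Of 28 genes of the fast sarcomere and calcium handling, 28 were tested, 10 were higher and 7 lower as deposited, 1 and 9 after median-ratio scaling, and 1 and 6 held. Des, desmin, the intermediate filament that links myofibrils, was at 2331, 2979, 4594, 2489 and 2674 TPM in cachectic libraries 6 to 10 and at 1008, 856, 785, 1094 and 898 TPM in non-cachectic libraries 61 to 65 (1.66, adjusted p = 8.7e-05), and rose in all 5 cachectic libraries. Casq1, calsequestrin, which stores calcium in the reticulum of fast fibres, averaged 1207 ± 464 against 2420 ± 469 TPM (-1.08, adjusted p = 0.00684) and fell. Actn3, the actinin of fast fibres, averaged 6468 ± 947 against 3294 ± 749 TPM (SD, n = 5 each) and was called as deposited (0.99, adjusted p = 0.00128) but not after median-ratio scaling (0.51, adjusted p = 0.0528). For Myh4 the difference of 0.24 (adjusted p = 0.197) turned to -0.25 after median-ratio scaling. Myh1 was lower at 4023 ± 1242 against 5674 ± 357 TPM (-0.55, adjusted p = 0.0218), and Myh2, the type 2A myosin, at 369.6 ± 74.3 against 658 ± 276 TPM (SD, n = 5 each, -0.75, adjusted p = 0.0305), which did not pass without library 8 (-0.68, adjusted p = 0.0579).

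Of 28 genes of denervation and the neuromuscular junction, 21 were tested, 10 were higher and 2 lower as deposited, 5 and 7 after median-ratio scaling, and 5 and 2 held. Myf6 (MRF4), the myogenic factor of mature fibres, averaged 257 ± 125 against 72.6 ± 6.14 TPM (SD, n = 5 each, 1.69, adjusted p = 0.000746) and rose. Myh8, perinatal myosin, was at 66.1, 148, 73.4, 119.7 and 141 TPM in cachectic libraries 6 to 10 and at 0.740, 52.0, 1.52, 61.2 and 57.8 TPM in non-cachectic libraries 61 to 65. Non-cachectic libraries 61 and 63 were near 0, and the groups did not overlap. Its call (2.77, adjusted p = 0.029) was lost after median-ratio scaling (adjusted p = 0.101), and its state difference in the diaphragm was 2.16. Sh3kbp1, an adaptor of the junction list, was lower at 4.07 ± 1.69 against 7.16 ± 0.720 TPM (SD, n = 5 each, -0.78, adjusted p = 0.0222, and -0.49 without library 8).

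Genes of oxidative phosphorylation were mostly not called on the deposited scale and mostly lower after median-ratio scaling. Of 91 nuclear genes of the respiratory chain, 76 were tested, 8 were higher and 17 lower as deposited, 1 and 58 after median-ratio scaling, and 1 and 17 held. The median was -0.04 as deposited and -0.52 after median-ratio scaling, and the summed level was 32530 to 35650 TPM in the cachectic and 31610 to 35680 TPM in the non-cachectic libraries, which overlapped. Cox7a1, the muscle isoform of a cytochrome c oxidase subunit, was at 702, 639, 165, 609 and 575 TPM in cachectic libraries 6 to 10 and at 884, 963, 869, 854 and 876 TPM in non-cachectic libraries 61 to 65. It fell (-0.88, adjusted p = 0.034, and -0.50 without library 8), while Cox7b rose from 565 ± 28.6 to 1086 ± 332 TPM (SD, n = 5, 0.89, adjusted p = 0.00294). Of the 13 proteins encoded in the mitochondrial genome, 13 were tested, 0 were higher and 5 lower as deposited, 0 and 6 after median-ratio scaling, and 0 and 4 held, with a median of -0.36 as deposited and -0.84 after median-ratio scaling. mt-Nd6 averaged 463 ± 146 against 836 ± 196 TPM (SD, n = 5 each, -0.90, adjusted p = 0.0133). Ppargc1a (PGC-1alpha), the coactivator of mitochondrial genes, averaged 15.7 ± 3.03 against 12.2 ± 1.20 TPM (SD, n = 5 each), and its difference of 0.33 (adjusted p = 0.0467) turned to -0.12 after median-ratio scaling (adjusted p = 0.596).

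**Figure D2:**
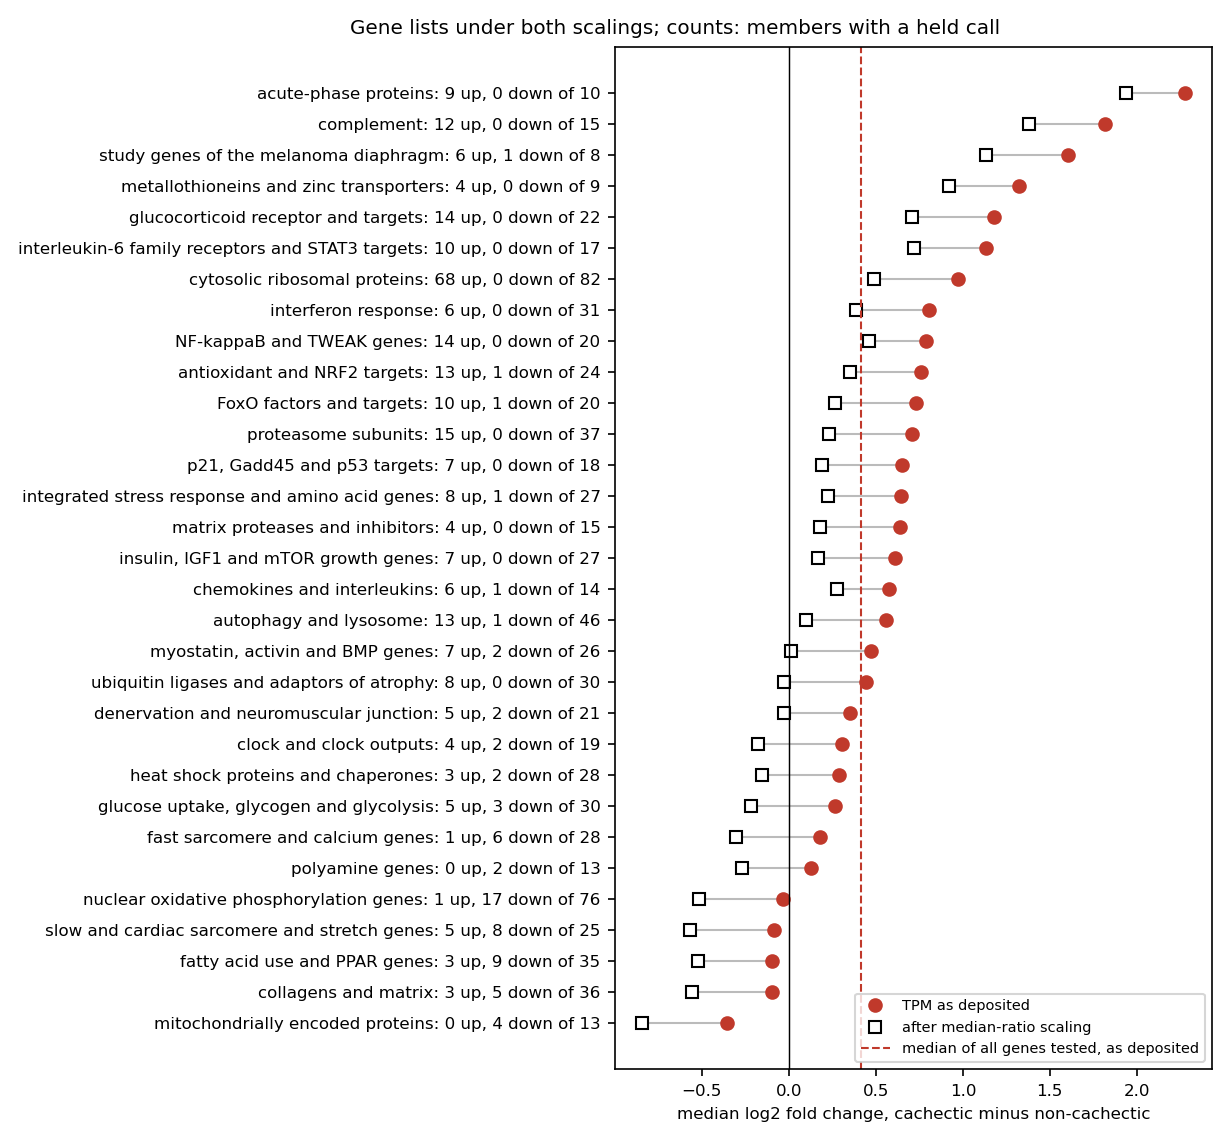
Median log2 fold change of 31 gene lists on TPM as deposited (red circles) and after median-ratio scaling (open squares), with the median of all genes tested as deposited (0.41, dashed line) and the number of held members beside each name. Acute-phase genes lie highest on both scales (2.28 as deposited and 1.94 after median-ratio scaling), and mitochondrially encoded proteins lowest (-0.36 as deposited and -0.84 after median-ratio scaling).

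Genes of fuel use moved in both directions. Ppp1r3c, which targets protein phosphatase 1 to glycogen and promotes glycogen synthesis, was at 354, 499.9, 689.9, 625 and 482 TPM in cachectic libraries 6 to 10 and at 23.6, 111, 95.3, 52.6 and 66.03 TPM in non-cachectic libraries 61 to 65, and the log2 fold change was 3.05 (SE 0.348, adjusted p = 0.000144 by limma), or 2.95 without library 8. Ldhb, the lactate dehydrogenase of oxidative fibres, was lower at 81.7 ± 20.9 against 172 ± 71.4 TPM (SD, n = 5 each, -1.02, adjusted p = 0.00999). Fbp2, the muscle fructose bisphosphatase, and Pfkfb3, which makes an activator of glycolysis, were called as deposited (1.24, adjusted p = 0.00247, and 1.07, adjusted p = 0.00582) and not after median-ratio scaling (adjusted p = 0.0801 and 0.144). Of 30 genes of glucose uptake, glycogen and glycolysis, 30 were tested, 13 were higher and 3 lower as deposited, 5 and 8 after median-ratio scaling, and 5 and 3 held. Fabp3, the fatty acid binding protein of heart and oxidative muscle, was at 419, 480.2, 269.9, 348 and 308 TPM in cachectic libraries 6 to 10 and at 682, 1153, 898, 696 and 1074 TPM in non-cachectic libraries 61 to 65 (-1.3, adjusted p = 0.00063) and fell in every cachectic library. Plin4, a lipid droplet coat, averaged 348 ± 213 against 119 ± 19.1 TPM (1.38, adjusted p = 0.00432), and Ucp2, a mitochondrial carrier, 7.22 ± 4.02 against 2.85 ± 0.682 TPM (SD, n = 5 each, 1.00, adjusted p = 0.00815). Of 37 genes of fatty acid use, 35 were tested, 10 were higher and 9 lower as deposited, 3 and 18 after median-ratio scaling, and 3 and 9 held.

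Matrix genes moved in both directions. Lox, the enzyme that cross-links collagen and elastin, was at 10.9, 10.6, 38.9, 11.2 and 12.4 TPM in cachectic libraries 6 to 10 and at 1.89, 2.08, 1.17, 1.33 and 1.42 TPM in non-cachectic libraries 61 to 65 (2.60, adjusted p = 0.000149, and 2.26 without library 8). Dcn, the proteoglycan decorin, averaged 276 ± 81.5 against 134 ± 25.4 TPM (1.00, adjusted p = 0.00277), and Eln, elastin, 10.4 ± 4.55 against 4.24 ± 1.09 TPM (SD, n = 5 each, 1.06, adjusted p = 0.0049), both higher. Col6a2, a chain of the collagen that anchors fibres, was lower at 4.61 ± 1.38 against 9.71 ± 2.31 TPM (SD, n = 5 each, -0.94, adjusted p = 0.0032). Of 39 collagen and matrix genes, 36 were tested, 5 were higher and 7 lower as deposited, 3 and 13 after median-ratio scaling, and 3 and 5 held. Of 19 matrix proteases and inhibitors, 15 were tested, 9 were higher and 0 lower as deposited, 4 and 2 after median-ratio scaling, and 4 and 0 held. Timp4, an inhibitor of these proteases, averaged 23.4 ± 13.1 against 8.90 ± 1.94 TPM (SD, n = 5 each, 1.18, adjusted p = 0.00779), whereas the calls of Timp3 (0.65) and Mmp2 (0.58) were lost after median-ratio scaling (adjusted p = 0.263 and 0.545).

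Genes of inflammatory signalling were higher. Of 22 genes of NF-kappaB and TWEAK signalling, 20 were tested, 15 were higher and 0 lower as deposited, 14 and 1 after median-ratio scaling, and 14 and 0 held. Tnfrsf1a, the main receptor of tumour necrosis factor, averaged 37.6 ± 18.9 against 11.2 ± 1.302 TPM (1.56, adjusted p = 0.000673), the adaptor Myd88 8.09 ± 4.56 against 2.37 ± 0.244 TPM (1.33, adjusted p = 0.00155) and Nfkb2 14.4 ± 11.3 against 5.54 ± 0.925 TPM (SD, n = 5 each, 1.03, adjusted p = 0.0163, and 0.67 without library 8). Cxcl13, a chemokine that attracts B cells, was at 9.04, 4.18, 79.4, 3.83 and 14.9 TPM in cachectic libraries 6 to 10 and at 0.0837, 0.126, 0.148, 0.295 and 0.127 TPM in non-cachectic libraries 61 to 65 (3.45, adjusted p = 0.00163, and 2.79 without library 8), with a state difference of 1.44 in the diaphragm. Ccl8 was at 33.3, 5.39, 6.00, 11.96 and 39.6 TPM in cachectic libraries 6 to 10 and at 0.659, 0.377, 0.445, 5.69 and 0.571 TPM in non-cachectic libraries 61 to 65 and overlapped between groups (2.90, adjusted p = 0.00303), with a state difference of 2.32. Ccl6 overlapped too, at 14.6 ± 15.2 against 1.55 ± 0.879 TPM (SD, n = 5 each, 2.19, adjusted p = 0.00495), and without library 8 the cachectic mean was 7.96 TPM and the fold change 1.72. Il15, a cytokine made by muscle, was lower at 6.51 ± 1.23 against 8.89 ± 0.762 TPM (SD, n = 5 each, -0.41, adjusted p = 0.0205). Of 25 chemokines and interleukins, 14 were tested, 8 were higher and 1 lower as deposited, 6 and 3 after median-ratio scaling, and 6 and 1 held.

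Interferon-response genes varied within both groups. Iigp1, a GTPase induced by interferon gamma, was at 104, 14.8, 18.4, 8.74 and 61.05 TPM in cachectic libraries 6 to 10 and at 4.60, 4.12, 6.94, 29.3 and 7.23 TPM in non-cachectic libraries 61 to 65. Libraries 6 and 10 were high in the cachectic group, and library 64 stood out in the non-cachectic group. Igtp was high in the same libraries, at 209, 20.7, 15.5, 10.5 and 86.2 TPM in cachectic libraries 6 to 10 and at 8.97, 3.86, 5.62, 30.3 and 7.29 TPM in non-cachectic libraries 61 to 65. Neither call (1.69, adjusted p = 0.0398, and 1.97, adjusted p = 0.0386) passed after median-ratio scaling (adjusted p = 0.19 and 0.172), and their state differences in the diaphragm were 2.01 and 1.98. Gbp2 averaged 32.2 ± 23.0 against 6.83 ± 4.77 TPM (SD, n = 5 each, 1.98, adjusted p = 0.00455), with a state difference of 1.77. Of 35 interferon-response genes, 31 were tested, 18 were higher and 0 lower as deposited, 7 and 0 after median-ratio scaling, and 6 and 0 held.

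Cdkn1a (p21), an inhibitor of the cell cycle, was at 19.9, 28.3, 204, 20.1 and 33.6 TPM in cachectic libraries 6 to 10 and at 8.62, 12.4, 10.1, 11.6 and 8.01 TPM in non-cachectic libraries 61 to 65 (1.83, adjusted p = 0.0121), and its fold change was 1.23 without library 8. Eda2r, a receptor of ectodysplasin and a target of p53, averaged 12.3 ± 7.78 against 2.55 ± 0.576 TPM (SD, n = 5 each, 1.77, adjusted p = 0.000928). Of 19 genes of p21, Gadd45 and p53, 18 were tested, 10 were higher and 0 lower as deposited, 7 and 0 after median-ratio scaling, and 7 and 0 held. Hsp90ab1, a constitutive chaperone, averaged 1410 ± 647 against 570.4 ± 50.9 TPM (1.22, adjusted p = 0.00167), Hsf1 38.8 ± 16.2 against 20.6 ± 0.803 TPM (0.80, adjusted p = 0.00711) and Cryab, a small chaperone of the sarcomere, 560 ± 161 against 850.2 ± 178 TPM (SD, n = 5 each, -0.62, adjusted p = 0.017), which fell. Hsp90b1 was higher as deposited (0.99, adjusted p = 0.0148, and 0.65 without library 8) and did not pass after median-ratio scaling (0.51, adjusted p = 0.0537). Of 28 chaperones, 28 were tested, 8 were higher and 2 lower as deposited, 3 and 11 after median-ratio scaling, and 3 and 2 held.

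Of 25 antioxidant genes, 24 were tested, 18 were higher and 1 lower as deposited, 14 and 4 after median-ratio scaling, and 13 and 1 held. Hmox1, which degrades haem, averaged 11.4 ± 9.09 against 2.44 ± 0.530 TPM (1.61, adjusted p = 0.00465, and 1.25 without library 8), Gpx3, a secreted peroxidase, 347 ± 144 against 128 ± 25.4 TPM (1.37, adjusted p = 0.00145) and Mgst1 13.2 ± 6.01 against 4.59 ± 1.36 TPM (1.3, adjusted p = 0.00221), while Sod2, the superoxide dismutase of mitochondria, was lower at 136 ± 20.7 against 197 ± 11.8 TPM (SD, n = 5 each, -0.55, adjusted p = 0.00428). Arntl (BMAL1), a core activator of the clock, was at 5.13, 5.51, 40.9, 3.09 and 7.94 TPM in cachectic libraries 6 to 10 and at 2.02, 2.84, 1.56, 1.95 and 2.08 TPM in non-cachectic libraries 61 to 65 (1.56, adjusted p = 0.0178, and 1.01 without library 8), with a state difference of 1.01 in the diaphragm. Dbp, an output of the clock, was at 58.4, 43.6, 9.53, 78.5 and 40.0 TPM in cachectic libraries 6 to 10 and at 86.8, 71.4, 78.6, 77.6 and 98.1 TPM in non-cachectic libraries 61 to 65 (-1.09, adjusted p = 0.0403, and -0.62 without library 8). Library 8 was the highest for Arntl and the lowest for Dbp. Nfil3, a repressor with the opposite rhythm to Dbp, averaged 41.2 ± 24.1 against 11.7 ± 3.69 TPM (SD, n = 5 each, 1.6, adjusted p = 0.00432). The time of day of collection is not given in the sources used here, and of 20 clock genes, 19 were tested, 8 were higher and 3 lower as deposited, 4 and 6 after median-ratio scaling, and 4 and 2 held.

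Several of the largest changes fell on genes with a near-identical copy elsewhere in the genome, so the reads may have been divided between copies, and these values are uncertain for either gene alone. By alignment of GENCODE M21 transcripts, Gm4737 (chr16:46152985-46155077, GRCm38) is 99.7% identical to Ahcy, the hydrolase of S-adenosylhomocysteine, over 2083 bases. Gm4737 was at 0, 24.0, 0, 0 and 25.6 TPM in cachectic libraries 6 to 10 and at 21.1, 28.1, 18.1, 34.8 and 27.6 TPM in non-cachectic libraries 61 to 65, and Ahcy at 24.8, 12.4, 84.3, 29.5 and 10.7 TPM in cachectic libraries 6 to 10 and at 8.29, 0.619, 8.10, 0.605 and 0.625 TPM in non-cachectic libraries 61 to 65. Libraries 6, 8 and 9 had Ahcy alone, and libraries 62, 64 and 65 had almost none of it. The sum of both was 42.3 ± 24.0 against 29.6 ± 3.49 TPM (SD, n = 5 each), a log2 difference of 0.37, where Gm4737 alone gave -2.84 and Ahcy alone 2.97 (2.53 without library 8). Ahcy, Amd1 and Pcna were named after their values were seen.

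Amd2, an intronless copy 99.6% identical to Amd1, the decarboxylase that supplies polyamine synthesis, fell from 9.85 ± 1.40 to 1.18 ± 0.465 TPM (SD, n = 5, -2.33, adjusted p = 3.2e-06). The summed level of both was 88.1 ± 15.5 against 102 ± 14 TPM, a log2 difference of -0.21 that was not tested. Gm3608, a pseudogene 99.5% identical to the capping protein gene Capza1, was at 11.8, 10.1, 22.5, 12.9 and 13.4 TPM in cachectic libraries 6 to 10 and at 0.320, 0.101, 0.278, 0.186 and 0.238 TPM in non-cachectic libraries 61 to 65 (3.58, adjusted p = 2.93e-07). Capza1 fell (-1.08, adjusted p = 0.000325), and the sum of the pair was 20.2 ± 6.36 against 14 ± 0.618 TPM (SD, n = 5 each). Pcna-ps2 (3.10) is 99.2% identical to Pcna, whose own difference was 0.14 as deposited (adjusted p = 0.449) and -0.31 after median-ratio scaling (adjusted p = 0.00428). The sum of that pair was 21.8 ± 7.52 against 12 ± 0.791 TPM (SD, n = 5 each). The log2 difference of 0.76 was not tested, and the groups did not overlap. The state differences in the diaphragm were 4.00 for Gm3608, 3.49 for Pcna-ps2, -1.09 for Amd2, -1.27 for Gm4737 and 1.46 for Ahcy.

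Others of the leading genes belonged to the same block by state. Cwc22, a splicing factor with near-identical copies, was at 33.3, 58.3, 109, 41.2 and 52.1 TPM in cachectic libraries 6 to 10 and at 2.80, 3.01, 2.43, 2.81 and 3.02 TPM in non-cachectic libraries 61 to 65 (3.85, adjusted p = 2.57e-06), with a state difference of 4.00. 2310075C17Rik was at 21.9, 26.5, 17.4, 22.0 and 19.7 TPM in cachectic libraries 6 to 10 and at 0.443, 0.296, 1.05, 0.297 and 0.149 TPM in non-cachectic libraries 61 to 65 (3.98, adjusted p = 5.85e-08), with a state difference of 3.66. Hist1h2al, annotated as a processed pseudogene of a histone gene, is 99.4% identical to Hist2h2aa1 over 339 bases, so its values too are uncertain for it alone. It was at 13.9, 29.0, 35.8, 0 and 0 TPM in cachectic libraries 6 to 10 and at 38.1, 50.5, 33.7, 35.9 and 41.3 TPM in non-cachectic libraries 61 to 65 (-2.54, adjusted p = 0.0363), with a state difference of -2.34. In the diaphragm these genes differed between states by about as much as between the melanomas here. Of 15 polyamine genes, 13 were tested, 3 were higher and 2 lower as deposited, 0 and 5 after median-ratio scaling, and 0 and 2 held. Sat1 and Paox, which return polyamines to shorter forms, were called as deposited (0.99 and 1.09, or 0.63 and 0.59 without library 8) and not after median-ratio scaling (adjusted p = 0.0659 and 0.125).

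**Figure D3:**
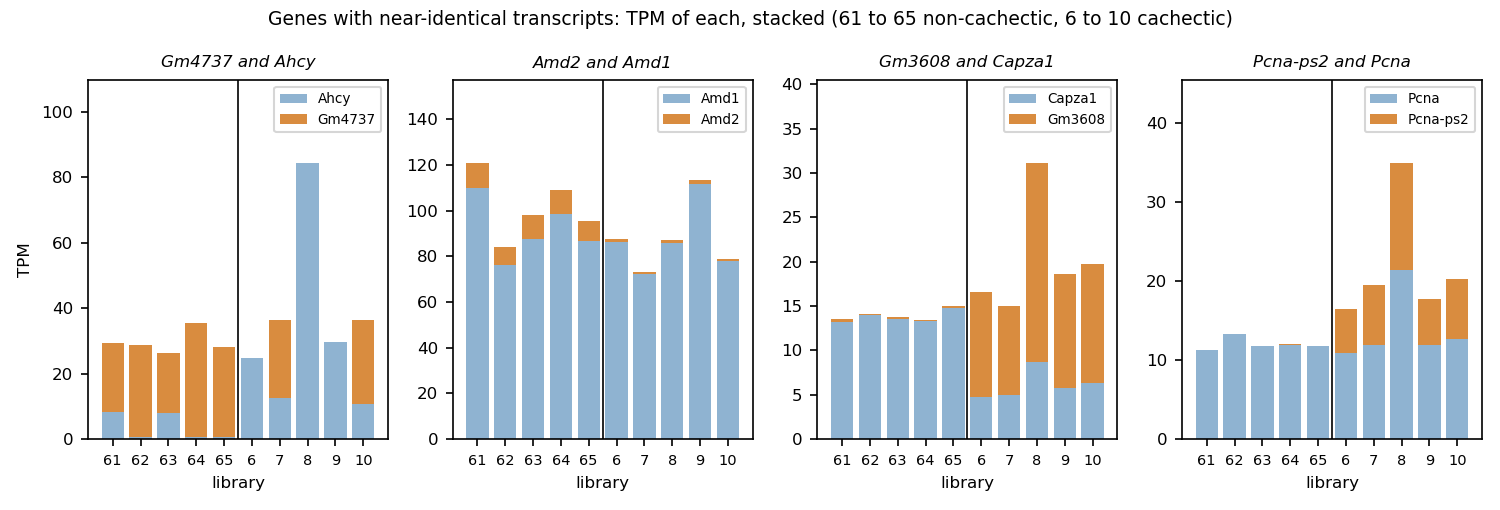
TPM of 4 pairs of genes with near-identical transcripts in each library, stacked, with non-cachectic libraries left and cachectic ones right of the line. The orange part does not overlap between the groups for Amd2, Gm3608 and Pcna-ps2, as for 51.7% of all genes tested. Gm4737 (orange) is 0 in libraries 6, 8 and 9, where Ahcy makes up the whole bar. In libraries 7 and 10 it is at 24.0 and 25.6 TPM, within the non-cachectic range.

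Among the lowest genes outside these pairs, Ighm, the heavy chain of immunoglobulin M, was at 28.2, 6.28, 3.64, 7.33 and 12.3 TPM in cachectic libraries 6 to 10 and at 158, 42.1, 90.8, 198 and 58.2 TPM in non-cachectic libraries 61 to 65 (-3.21, adjusted p = 0.000899), and every cachectic library was below every non-cachectic one. Its state difference in the diaphragm was in the other direction, at 1.43. In a piece of muscle, fewer cells of a type and less RNA per cell cannot be told apart. Tfrc, the transferrin receptor that imports iron, was at 10.0, 6.5, 12.2, 17.7 and 15.5 TPM in cachectic libraries 6 to 10 and at 64.99, 44.8, 78.0, 39.1 and 76.3 TPM in non-cachectic libraries 61 to 65 (-2.22, adjusted p = 0.000165), with library 8 within the range of its group. Dkk3, a secreted protein of the Dickkopf family, was at 1.64, 1.09, 1.41, 2.82 and 3.69 TPM in cachectic libraries 6 to 10 and at 15.3, 13.97, 29.8, 22.6 and 5.61 TPM in non-cachectic libraries 61 to 65 (-2.45, adjusted p = 0.00066). Nrep, a small intracellular protein named for nerve regeneration, averaged 13.8 ± 9.18 against 79.1 ± 43.4 TPM (SD, n = 5 each, -2.54, adjusted p = 0.00128). B230312C02Rik, an uncharacterised transcript, was at 1.51, 1.62, 7.71, 1.97 and 1.98 TPM in cachectic libraries 6 to 10 and at 47.4, 6.31, 21.2, 23.1 and 27.4 TPM in non-cachectic libraries 61 to 65 (-2.67, adjusted p = 0.00145), and overlapped only through library 8 and library 62. Of the 20 genes with the highest and lowest fold changes, 19 held, all but Gm4737 (adjusted p = 0.0538 without library 8). These 20 were picked among genes called as deposited, so the choice already met part of the rule for a held call.

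Markers of several other cell types moved with the melanoma, and their part in the results above was not tested. The summed level of 8 macrophage markers was 51.4 to 360 TPM in the cachectic and 31.3 to 63.7 TPM in the non-cachectic libraries. Of 7 tested, 7 were called higher and 3 held, beside 56.4% and 18.3% of all genes tested. Neutrophil markers summed to 7.25 to 55.0 TPM in the cachectic and 1.14 to 3.97 TPM in the non-cachectic libraries, fibro-adipogenic cell markers to 148 to 289.6 TPM in the cachectic and 62.4 to 112 TPM in the non-cachectic libraries and endothelial markers to 115 to 239.5 TPM in the cachectic and 89.1 to 122 TPM in the non-cachectic libraries. B and plasma cell markers summed to 8.08 to 38.5 TPM in the cachectic and 44.99 to 205 TPM in the non-cachectic libraries. Ighm made up most of this in the non-cachectic libraries, and was at 28.2, 6.28, 3.64, 7.33 and 12.3 TPM in cachectic libraries 6 to 10. Without Ighm the other 7 markers summed to 1.80 to 11.7 TPM in the cachectic and 1.64 to 7.12 TPM in the non-cachectic libraries, which overlapped. Of 2 tested markers 1 was called lower, beside 3.78% of all genes tested. T cell markers summed to 0.196 to 7.65 TPM in the cachectic and 0.0358 to 0.131 TPM in the non-cachectic libraries, with library 6 the highest. Liver markers summed to 0.511 to 33.6 TPM in the cachectic and 0.139 to 0.754 TPM in the non-cachectic libraries, with library 10 the highest. Tendon markers summed to 18.8 to 48.0 TPM in the cachectic and 36.2 to 60.3 TPM in the non-cachectic libraries, adipocyte markers to 340.2 to 521 TPM in the cachectic and 304 to 391 TPM in the non-cachectic libraries, red blood cell markers to 343 to 884 TPM in the cachectic and 309 to 1090 TPM in the non-cachectic libraries and Schwann cell markers to 23.7 to 50.1 TPM in the cachectic and 17.1 to 34.4 TPM in the non-cachectic libraries. Satellite cell markers summed to 7.96 to 10.1 TPM in the cachectic and 3.27 to 4.94 TPM in the non-cachectic libraries, melanocyte markers to 6.28 to 11.4 TPM in the cachectic and 5.51 to 6.37 TPM in the non-cachectic libraries and fast-fibre markers to 48570 to 62390 TPM in the cachectic and 46320 to 65290 TPM in the non-cachectic libraries. Of 6 slow-fibre markers, 6 were tested, 4 were higher and 2 lower as deposited, 1 and 2 after median-ratio scaling, and 1 and 1 held, and their sum was 10.9 to 39.6 TPM in the cachectic and 36.0 to 60.2 TPM in the non-cachectic libraries. The ranges did not overlap for neutrophils, fibro-adipogenic cells (through Ly6a), B cells (through Ighm), T cells and satellite cells. Ly6a made up most of the fibro-adipogenic sum in the cachectic libraries, and the sums of the other fibro-adipogenic markers overlapped between the groups. Of 5 tested fibro-adipogenic markers 3 held as higher. For satellite cells 0 of 2 tested markers held. Mlana and Tyr, defining markers of pigment cells, were listed at 0 in all 10 libraries. Ly6g, Mpo and Elane of neutrophils did not exceed 0.115, 0.0166 and 0.0724 TPM, so the neutrophil sum was nearly all S100a8, S100a9 and Retnlg.

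The melanoma effect was then compared with that in the other muscles, in 1 limma fit of 39 libraries from tibialis anterior, soleus and the diaphragm of mice without rFibcd1. The difference between effects passed for 2750 of 13501 genes (20.4%) against soleus, a slow muscle, and for 681 (5.04%) against the diaphragm. Median-ratio scaling gave 1411 against soleus and 684 against the diaphragm. Of the calls, 93.8% and 85.9% were positive differences as deposited, and 39.5% and 42.8% after this scaling. Both counts also depended on which libraries entered. Without cachectic library 8 they were 1614 and 322, and without cachectic library 6 they were 3997 and 1619. The count against the diaphragm was 411, 429 and 369 without non-cachectic libraries 61, 62 and 63. Libraries of different muscles with the same column number deviated from their group means together, with correlations of 0.188 to 0.510 across genes for tibialis anterior and soleus, and with the column number as a block 5569 and 2317 genes passed.

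Fbxo32 rose more in tibialis anterior than in soleus, where its fold change was -0.27, a difference of 2.59 (SE 0.621, adjusted p = 0.00459 by limma). Against the diaphragm, at 0.55, the difference was 1.76 (SE 0.542, adjusted p = 0.0494 by limma), and passed neither without library 8 (1.41, adjusted p = 0.173) nor after median-ratio scaling (1.52, adjusted p = 0.0925). Mt2, Mt1 and Socs3 rose more than in the diaphragm: the differences were 3.29 (SE 0.966, adjusted p = 0.0404 by limma) for Mt2, 2.55 (SE 0.768, adjusted p = 0.0459 by limma) for Mt1 and 1.33 (SE 0.389, adjusted p = 0.0394 by limma) for Socs3. None of these passed without library 8, where the adjusted p was 0.143, 0.168 and 0.129. Myl3 fell here and was at -0.34 in soleus and -0.06 in the diaphragm, with differences of -2.40 against soleus and -2.69 against the diaphragm (adjusted p = 0.000363 and 3.1e-05).

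Dkk3 was at -0.01 in soleus (adjusted p = 0.995) and rose in the diaphragm (0.64, adjusted p = 0.0291). The differences of its fold change here were -2.44 (SE 0.464, adjusted p = 0.000632 by limma) and -3.09 (SE 0.406, adjusted p = 1.3e-05 by limma). B230312C02Rik differed by -3.16 (SE 0.505, adjusted p = 9.91e-05 by limma) and -1.86 (SE 0.441, adjusted p = 0.0115 by limma), and Amd2 by -0.94 (SE 0.2998, adjusted p = 0.0261 by limma) and -1.69 (SE 0.262, adjusted p = 0.000112 by limma). For Actc1 the difference from soleus was -2.97 (SE 0.705, adjusted p = 0.0043 by limma), and that from the diaphragm did not pass. For Ighm the difference from the diaphragm was -3.62 (SE 1.10, adjusted p = 0.0472 by limma), which did not pass without library 8 (adjusted p = 0.126). That of Amd2 from soleus did not pass without library 8 either (adjusted p = 0.0524). With the column number as a block, these 15 differences passed again, and 10 more did among the 30 leading and key genes tested. That libraries of the same number deviate together was checked with soleus and not with the diaphragm. The block was not fitted without library 8. Against soleus the blocked differences were 2.76 (adjusted p = 0.00635) for Mt2, 2.24 (adjusted p = 0.00463) for Mt1 and 1.16 (adjusted p = 0.00562) for Socs3. Lcn2 passed against soleus at 1.77 (adjusted p = 0.0336) and against the diaphragm at 1.84 (adjusted p = 0.0375). Tfrc passed at -1.32 (adjusted p = 0.0431) and -2.24 (adjusted p = 0.00251). Foxo1, Ighm and Myh4 passed against soleus, at 0.70 (adjusted p = 0.0431), -2.63 (adjusted p = 0.0362) and -2.93 (adjusted p = 0.0252). For the remaining genes a missed threshold does not show that they moved alike in the muscles.

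**Figure D4:**
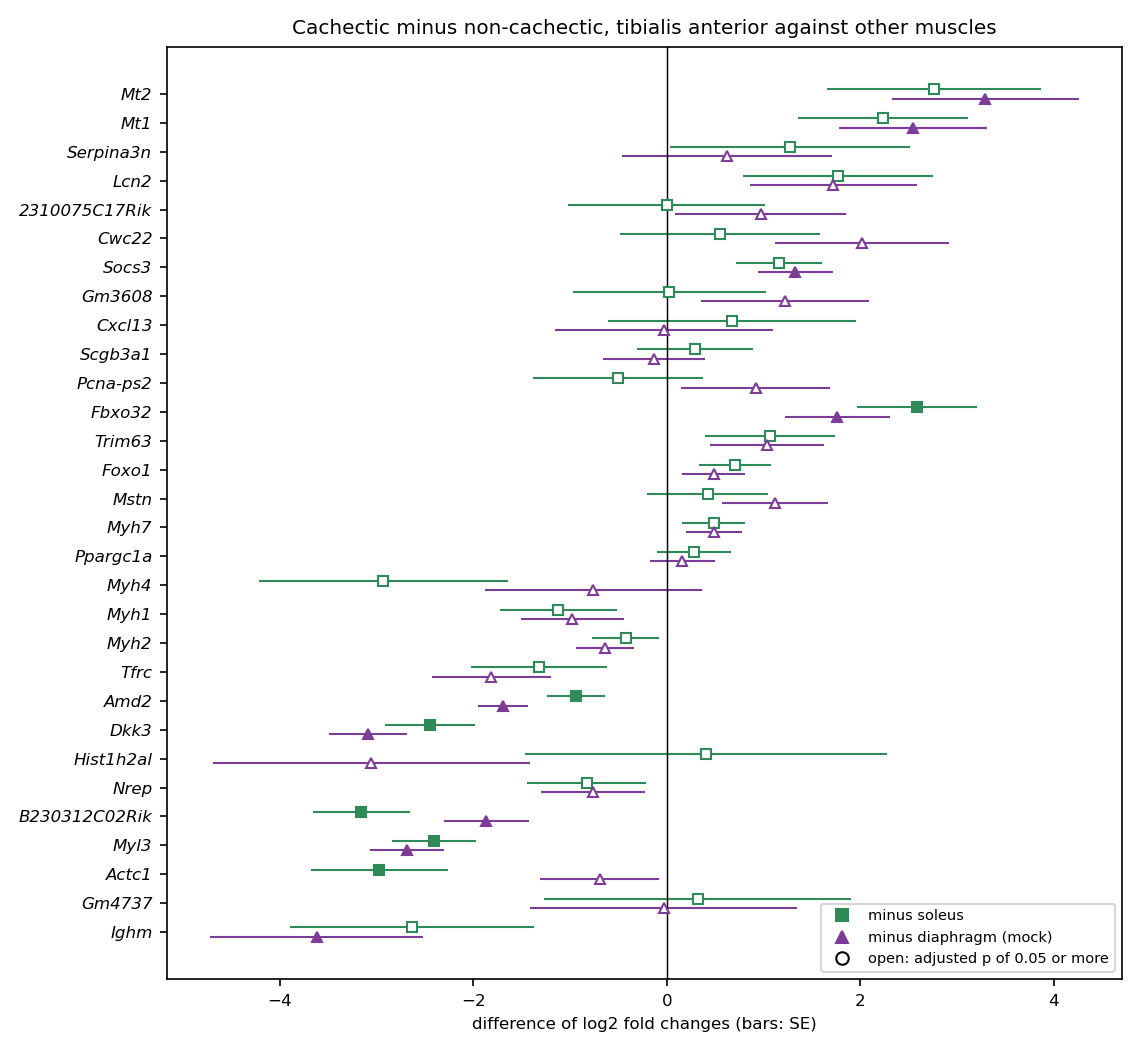
Difference between the log2 fold change in tibialis anterior and that in soleus (green squares) or diaphragm (purple triangles) for the 20 leading genes and the key genes tested, with SE bars and filled marks where the adjusted p was under 0.05 in the fit without the block. Fbxo32 lies at 2.59 and 1.76, and Myl3 at -2.40 and -2.69.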

How the data were processed

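RNA-seq of mouse muscle was analysed from the table of gene TPM values that the authors deposited, with 47643 genes in 59 columns. Per the study's methods the authors trimmed and filtered paired-end reads and mapped them to GRCm38 with CLC Genomics Workbench, and the labels give mm10. Those methods describe the sequencing of the diaphragm, and the gene annotation is not given in the sources used here. TPM keeps no depth, so the depth of each library is unknown and no counting error is given.

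Genes with a TPM of at least 1 in at least 5 of 10 libraries were tested on log2(TPM + 1) with limma 3.58.1 in R 4.3.3 (trended empirical Bayes, Benjamini-Hochberg, threshold 0.05), and the scripts were checked on simulated data. Interactions used 1 fit of 39 libraries. Median-ratio scaling divides each library by the median ratio of its genes to their geometric mean. Named genes were the 10 highest and 10 lowest called fold changes at a mean over all 10 libraries of at least 5 TPM, for each list the 3 most changed called members above that level and the most changed one in the other direction, and fixed key genes. The members and lists were chosen with earlier results of these data known. Promoters came from RefSeq (GRCm38.p6) and positions from GENCODE M21. Alternatives were the pseudocount, filter, scaling, array weights, a joint fit, the rank test the study used and each library left out. Libraries of tibialis anterior and soleus with the same column number deviated together (r of 0.188 to 0.510 across genes), which is a hint of pairing from the data and not from the labels, so the interactions were also fitted with that number as a block.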

Additional observations from a re-analysis of the deposited data

Results flagged for a closer look

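In groups of 5 libraries, a library was singled out where its gap to the nearest other value was large against the range of its group (Dixon's 95% criterion), which chance alone does in about 1 in 20 groups. Cachectic library 8 was far above its group for B230312C02Rik (7.71 TPM), Cdkn1a (204 TPM), Cryab (843 TPM), Ctsl (898 TPM), Eif4ebp1 (741 TPM), Hsf1 (67.5 TPM), Hsp90ab1 (2560 TPM), Hsp90b1 (233 TPM), Igfbp3 (139 TPM), Lox (38.9 TPM), Mgst1 (23.9 TPM), Myd88 (16.2 TPM), Nfkb2 (34.6 TPM), Paox (44.6 TPM), Pcna (21.4 TPM), Psma7 (218 TPM), Psmd4 (334 TPM), Rpl3 (166 TPM), Rpl30 (334 TPM), Rps3a1 (1510 TPM), Sat1 (60.9 TPM), Serpina3n (2160 TPM), Slc39a14 (35.0 TPM) and Tnfrsf1a (71.1 TPM). It was far below its group for Cox7a1 (165 TPM), Sh3kbp1 (1.16 TPM), mt-Co1 (33600 TPM), mt-Nd5 (6160 TPM) and mt-Nd6 (216 TPM). Its median absolute log2 distance from the non-cachectic mean, 0.9109, also lay far from the other cachectic libraries. The fold changes of these genes include it.

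Other libraries stood out for few genes: cachectic library 7 for Ppargc1a (21 TPM, the highest), non-cachectic library 62 for Map1lc3b (64.5 TPM, the highest), non-cachectic library 63 for Socs3 (1.41 TPM, the lowest), non-cachectic library 64 for Ccl8 (5.69 TPM, the highest), Gbp2 (15.3 TPM, the highest) and Iigp1 (29.3 TPM, the highest) and non-cachectic library 65 for Chac1 (20.7 TPM, the lowest) and Eln (6.16 TPM, the highest). Non-cachectic library 62 had a mitochondrial share of 51.67% and a share of the 10 most abundant genes of 49.06% of TPM, both the highest of its group. No test links these values to a property of the animals.

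The melanoma effect differed from that in soleus, by the interaction term of limma at an adjusted p under 0.05, for Actc1 (-2.97), Amd2 (-0.94), B230312C02Rik (-3.16), Dkk3 (-2.44), Fbxo32 (2.59) and Myl3 (-2.40), given as log2 differences, tibialis anterior minus soleus. It differed from that in the diaphragm for Amd2 (-1.69), B230312C02Rik (-1.86), Dkk3 (-3.09), Fbxo32 (1.76), Ighm (-3.62), Mt1 (2.55), Mt2 (3.29), Myl3 (-2.69) and Socs3 (1.33). Of these 15 differences, 9 also passed without cachectic library 8, and all 15 with the column number as a block.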

How the results depend on the processing

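The count of 6680 calls stayed within 1.5 times under all alternatives but one: the study's kind of rank test, at an unadjusted p with a log2 fold over 1, called 848 genes. It was 4525 after median-ratio scaling and 5356 without mitochondrially encoded genes, and 4971 to 7414 with each library left out. The count against soleus was 1411 after median-ratio scaling, 4578 without mitochondrially encoded genes, 5569 with the column number as a replicate block, and 1614 (without cachectic library 8) to 3997 (without cachectic library 6) with each library left out. The count against the diaphragm was 2368 without mitochondrially encoded genes, 1491 with array weights, 2317 with the block, and 322 to 1619 with each library left out. Changes of sign were found for 3 genes. Myh4 was at -0.25 after median-ratio scaling, 0.00 without mitochondrially encoded genes, and -0.05 with median-ratio scaling and no library 8. Pcna was at -0.31, -0.08 and -0.34 in the same settings, and -0.02 to 0.21 with each library left out. Ppargc1a was at -0.12 after median-ratio scaling. The cause was not tested. Of 2447 values of named genes, 2243 kept direction and side of the threshold, 194 lost the call, 2 gained it and 8 changed sign. Of 251 interaction values, 208 kept both and 43 lost the call. No paired analysis was possible because the columns of tibialis anterior carry no labelled replicate numbers, and those in their names are not shared between the melanomas. The block by column number and median-ratio scaling without library 8 were chosen after seeing the data. Depth is unknown, so low TPM values carry an unknown counting error.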
